A study of Mus musculus with 16 samples.

Results

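Microglia, the resident macrophages of brain tissue, were followed through 33 named genes in bulk RNA-seq of mouse dorsal raphe tissue (DRN), a midbrain site rich in serotonin neurons. The genes were chosen by name as known microglia genes, with earlier results of these data known, so the list as a whole was not tested. Of these, 27 were among the 14504 genes of the table, and Irf8, Spi1, Itgam, Inpp5d, Ptprc and Mrc1 were not analysed here. The 16 libraries, 1 per animal label, came from adult male C57BL/6 mice of 3 phenotypes. These were unstressed controls, mice with a passive coping strategy (PS, labelled dep1) and mice with an active coping strategy (AS, labelled dep2), the last 2 after 30 days of chronic social stress. Each phenotype received saline or dexamethasone (DEX, 2 mg/kg), a synthetic glucocorticoid, 6 h before the tissue was collected. There were 3 control saline, 3 control DEX, 2 PS saline, 3 PS DEX, 3 AS saline and 2 AS DEX libraries. Coping class was set by behavior in defeated mice that had lived behind a partition from CD1 aggressors, so the model contrasts stressed animals with unstressed ones housed differently, and the study had dropped DEX-treated PS and AS samples in which Tph2 was low.

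As background, homeostatic microglia carry surface receptors that sense neighboring neurons. Cx3cr1 binds fractalkine from neurons, P2ry12 and P2ry13 are purinergic receptors that sense nucleotides, and Csf1r is the growth factor receptor on which microglial survival depends. Microglia are also the main source of C1q, the first component of the classical complement pathway, and they carry a phagocytic system in which the receptor Trem2 signals through the adaptor Tyrobp and lysosomal proteases such as Ctss and Lgmn degrade what is taken up. Glucocorticoids act on these cells through the glucocorticoid receptor.

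The promoters of the 4 genes that were lower after DEX, and of C1qb, which was not, are shown because they are where a glucocorticoid receptor site or a PU box, the DNA letters read by the myeloid factor PU.1, could be looked for. They are the 250 bases before the RefSeq start site on build GRCm38.p6, 5′ to 3′ on the strand of the gene, all from the minus strand, and capitals mark PU boxes (GAGGAA on either strand) and glucocorticoid receptor half-sites (AGAACA on either strand). RefSeq promoters were matched for 20 of the 27 genes, at 24 start sites.
Cx3cr1, chr9:120068297-120068546: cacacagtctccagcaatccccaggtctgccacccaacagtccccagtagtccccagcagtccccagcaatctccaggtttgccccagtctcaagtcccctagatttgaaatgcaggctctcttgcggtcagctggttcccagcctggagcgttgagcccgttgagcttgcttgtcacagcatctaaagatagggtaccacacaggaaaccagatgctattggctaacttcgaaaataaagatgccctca
P2ry12, chr3:59262986-59263235: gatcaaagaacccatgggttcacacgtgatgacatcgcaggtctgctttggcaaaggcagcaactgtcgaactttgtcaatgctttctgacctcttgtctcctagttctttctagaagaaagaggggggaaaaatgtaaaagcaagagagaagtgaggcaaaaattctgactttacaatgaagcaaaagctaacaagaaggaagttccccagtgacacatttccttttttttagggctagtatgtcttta
Fcrls, chr3:87263525-87263774: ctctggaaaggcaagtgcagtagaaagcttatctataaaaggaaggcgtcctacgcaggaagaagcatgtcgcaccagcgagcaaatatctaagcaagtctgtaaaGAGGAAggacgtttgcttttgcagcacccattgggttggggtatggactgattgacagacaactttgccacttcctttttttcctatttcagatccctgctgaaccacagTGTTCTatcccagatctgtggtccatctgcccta
Aif1, chr17:35176053-35176302: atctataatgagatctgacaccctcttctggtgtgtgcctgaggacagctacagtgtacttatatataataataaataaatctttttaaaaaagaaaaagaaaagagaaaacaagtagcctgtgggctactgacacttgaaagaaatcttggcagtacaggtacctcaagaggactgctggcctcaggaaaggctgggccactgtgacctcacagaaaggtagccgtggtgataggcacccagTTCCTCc
C1qb, chr4:136886201-136886450: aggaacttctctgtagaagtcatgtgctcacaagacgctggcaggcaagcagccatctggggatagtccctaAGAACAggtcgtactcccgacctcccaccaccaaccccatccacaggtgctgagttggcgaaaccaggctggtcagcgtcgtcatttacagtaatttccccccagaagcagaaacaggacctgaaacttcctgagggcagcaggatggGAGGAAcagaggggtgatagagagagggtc

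Neither capitalized motif was found in the windows of Cx3cr1 and P2ry12, the promoter of Fcrls held 1 of each, that of Aif1 held a PU box, and that of C1qb, a gene near 0 in the DEX comparison, held 1 of each. Over all windows, GAGGAA was in 12 of the 24 member promoters and in 23.25% of 32851 RefSeq promoters of the same length, and AGAACA was in 8 of 24 and in 16.08%. By gene these were 11 of 20 and 8 of 20, because windows of 1 gene can overlap, as for Fcgr3. For 20 of the 24 start sites, 30 bases downstream of the start were found in a GENCODE transcript of the gene. The longer PU box GAGGAAGT was in 1 of 24 (2.44% of all), the E box CACGTG in 3 of 24 (6.02%) and the full glucocorticoid response element, a pair of half-sites as an inverted repeat 3 bases apart, in 0 of 24 (0.01%). The shorter PU box and the present window were chosen after hits of the longer box in a wider window had been seen, AGAACA lies within the full element and GAGGAA within the longer box, and the counts are descriptions of letters only.

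All 27 genes had at least 10 reads in every library. Reads recovered over the 14504 genes of the table ran from 38207157 to 62447298 per library, of which 13852 to 25468 fell on the 27 genes. Fkbp5, a glucocorticoid receptor target, stood at 1241 to 1536 normalized counts in saline libraries and at 5578 to 6958 in DEX libraries. Tph2, which defines serotonin neurons, was at 91764 or above in all 16. Samples low in Tph2 had already been dropped by the study, so this level is no independent check of the tissue. Per kilobase of exon, the mean level over libraries was highest for the lysosomal protease Lgmn (2887 normalized counts per kb), followed by C1qb (845), the protease Ctss (808), C1qa (720) and C1qc (327). Lowest was Aif1 (44.6), with Cx3cr1 (172) and P2ry12 (154) between. Exon length merged the exons of all annotated transcripts of a gene, so the order per kb depends on that annotation. Lgmn and Ctss are not made by microglia alone.

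After DEX, averaged over the 3 phenotypes, 4 of the 27 genes were lower and 0 were higher, against 1.53% of all 14504 genes called lower, 2.78% called higher and 4.31% called in either direction. The 4 were Cx3cr1, P2ry12, Fcrls and Aif1. Calls were made at an adjusted p under 0.1 (limma on log2(normalized count + 1), Benjamini-Hochberg over all genes). In all, 23 of 27 had a log2 change below 0 (50.6% of all genes), with a median of -0.32 against -0.003 over all genes, and 14 were lower at an unadjusted p under 0.05 (6.25% of all genes). In bulk tissue, fewer microglia and less RNA per microglial cell cannot be told apart.

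Cx3cr1, the fractalkine receptor (chr9:119901616-120069879, minus strand, GRCm38), had the smallest p of the 27. Its values were 1055, 1004 and 937 normalized counts in control saline libraries, 941 and 1000 in PS saline and 937, 1082 and 1006 in AS saline. With DEX they were 512, 738 and 527 in controls, 458, 556 and 515 in PS and 655 and 508 in AS. Each of the 8 DEX libraries lay below each of the 8 saline libraries, which 0.51% of all genes did in that direction. The mean was 995 ± 55.0 (SD, n = 8) with saline and 559 ± 91.9 (SD, n = 8) with DEX, a log2 change of -0.83 (SE 0.094, adjusted p = 9.7e-05), or 0.561 of the saline level. In the annotation 9 genes overlap its span, among them Gorasp1 and Csrnp1 on the same strand, and 1.7% of its exon bases (78) are shared with a gene, the antisense Gm33858.

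P2ry12, the purinergic receptor that guides microglial processes (chr3:59216272-59262871, minus strand), had saline values of 477, 342 and 465 in controls, 409 and 427 in PS and 525, 759 and 420 in AS. After DEX the values were 265, 376 and 296, then 287, 311 and 306, then 339 and 270, in the same order of phenotypes. The DEX range overlapped the saline range only through con_sal_104 (342) and con_dex_116 (376), and AS_sal_40 (759) stood highest. The change was -0.59 on the log2 scale (SE 0.13, adjusted p = 0.0219). Without AS_dex_42 the adjusted p was 0.113. P2ry12 lies inside Med12l on the opposite strand, sharing 9 exon bases, and Med12l had a change of 0.21 (adjusted p = 0.411).

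Fcrls, an Fc receptor-like surface gene used as a microglia marker (chr3:87250758-87263738, minus strand), read 292, 255 and 325 in control saline libraries, 255 and 229 in PS saline and 313, 515 and 213 in AS saline. DEX libraries read 179, 225 and 181, then 172, 201 and 134, then 212 and 158. The ranges met between AS_sal_8 (213) and con_dex_116 (225), and AS_sal_40 (515) was again highest. Its change was -0.64 (SE 0.17, adjusted p = 0.059), and the call was lost without any 1 of con_dex_101, con_dex_122, PS_dex_64, PS_sal_62, PS_sal_68 or AS_dex_42 (adjusted p 0.117 to 0.245).

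Among the other homeostatic genes the changes ran from -0.63 to 0.20, and none passed the limma test. DESeq2 on the recovered reads called Gpr34 and Siglech lower. Gpr34, a lysophospholipid receptor, had a change of -0.63 (95% interval -1.09 to -0.18, adjusted p = 0.167), and Siglech, a sialic acid-binding lectin, had -0.37 (-0.60 to -0.14, adjusted p = 0.1002), just outside the threshold. Csf1r had 1761, 1433 and 1619 in control saline, 1732 and 1543 in PS saline and 1750, 2056 and 1596 in AS saline, and with DEX 1508, 1369 and 1311, 1434, 1505 and 1394, and 1709 and 1501. These ranges overlapped, and its change was -0.18 (-0.33 to -0.03, adjusted p = 0.274). Csf1r shares 15.1% of its exon bases with Hmgxb3 on the other strand, and whether the counting used strand is not given in the sources used here. P2ry13 had -0.32 (-0.63 to -0.01, adjusted p = 0.338).

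Tmem119, a surface protein widely used to tell microglia from other macrophages, had 410, 425 and 384 in control saline, 380 and 320 in PS saline and 433, 420 and 321 in AS saline. With DEX the values were 371, 320 and 425, 406, 321 and 313, and 414 and 390. Saline and DEX libraries interleaved over nearly the same range, and the change was -0.03 (-0.25 to 0.19, adjusted p = 0.896). Olfml3 (-0.04, -0.40 to 0.32), Selplg (0.11, -0.13 to 0.34) and Ltc4s (0.20, -0.30 to 0.70) had intervals that spanned 0. Ltc4s shares 26.4% of its exon bases with an antisense gene. Of the lineage transcription factors only Sall1, which maintains microglial identity, was in the table: it read 875, 687 and 628 in control saline, 762 and 777 in PS saline and 966, 684 and 846 in AS saline, and 584, 694 and 824, 703, 619 and 933, and 951 and 760 with DEX. The arms overlapped widely, and the change was -0.02 (-0.28 to 0.23, adjusted p = 0.940).

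**Figure D1:**
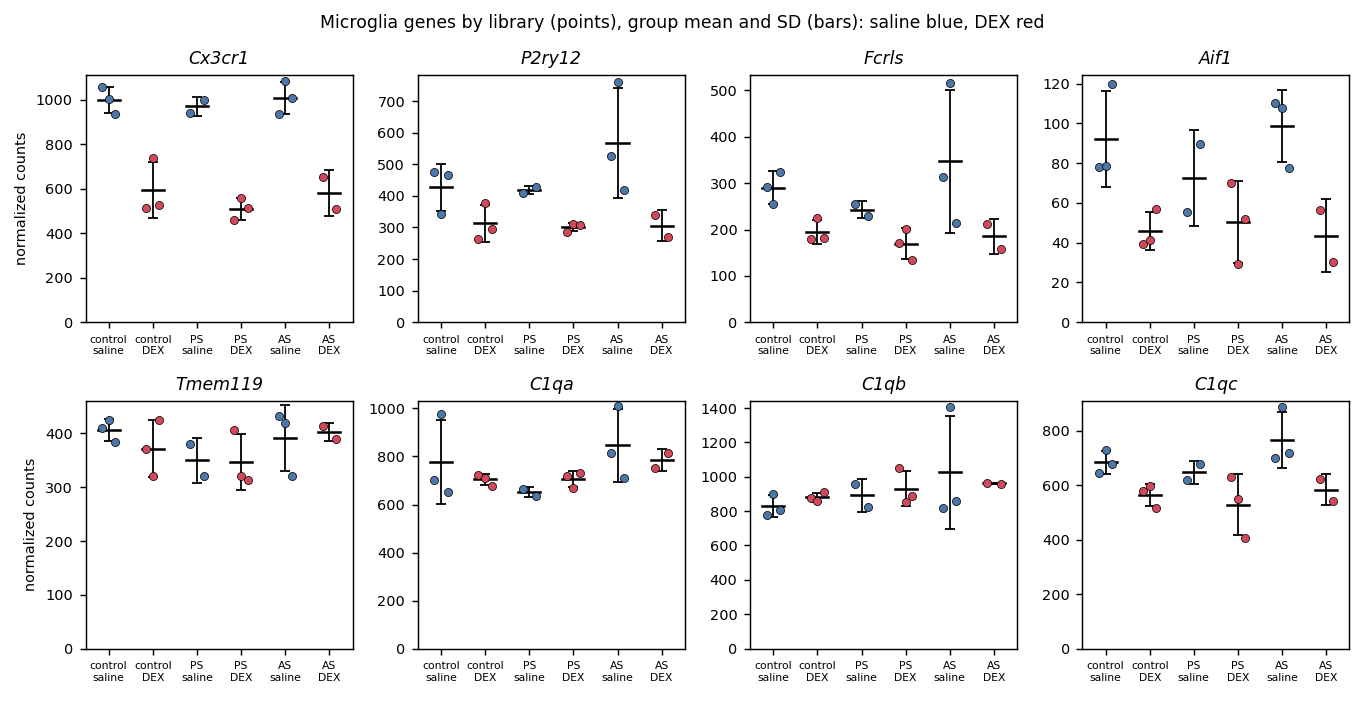
Normalized counts of 8 microglia genes in each library (points; saline blue, DEX red), with the mean and SD of each of the 6 groups (bars). Cx3cr1 is lower in each DEX library than in each saline library, P2ry12, Fcrls and Aif1 are lower with overlap, and Tmem119, C1qa and C1qb are at like levels in both arms.

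The complement genes C1qa, C1qb and C1qc, which encode the 3 chains of C1q and lie side by side on chromosome 4, were 0 of 3 called by limma, and 1 of 3 at an unadjusted p under 0.05. Over all genes, 1.53% were called lower and 6.25% were lower at an unadjusted p under 0.05, so 0 of 3 called cannot set this class apart. DESeq2 on the recovered reads called C1qc lower. C1qa had 701, 977 and 652 in control saline, 666 and 637 in PS saline, and 816, 1011 and 711 in AS saline, against 721, 712 and 679, 721, 669 and 732, and 754 and 816 with DEX. The DEX libraries lay inside the saline range, with a change of -0.03 (-0.24 to 0.18, adjusted p = 0.897).
C1qb had 779, 900 and 809, 958 and 825, and 816, 1407 and 856 with saline, against 874, 857 and 909, 1049, 855 and 889, and 962 and 961 with DEX. AS_sal_40 (1407) alone stood far from the rest, and the change was 0.03 (-0.20 to 0.26, adjusted p = 0.902). C1qc had 645, 729 and 679, 618 and 677, and 700, 886 and 717 with saline and 577, 596 and 518, 630, 548 and 408, and 624 and 543 with DEX. Its arms overlapped only through PS_sal_62 (618) against PS_dex_34 (630) and AS_dex_38 (624), and the change was -0.33 (-0.54 to -0.12, adjusted p = 0.105), outside the threshold.

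Of the 8 phagocytic and lysosomal genes, 0 were called by limma and 3 (Trem2, Tyrobp and Cd68) had an unadjusted p under 0.05, with a median change of -0.28. Over all genes, 1.53% were called lower and 6.25% were lower at an unadjusted p under 0.05, so 0 of 8 called cannot set this class apart. DESeq2 on the recovered reads called 0 of these 8. The receptor Trem2 had saline values of 262, 262 and 242 in controls, 199 and 263 in PS and 280, 308 and 245 in AS, and DEX values of 258, 247 and 204, 155, 123 and 185, and 228 and 231. The lowest 3 libraries were the PS DEX libraries, and the average change was -0.32 (-0.57 to -0.08, adjusted p = 0.207). Its adaptor Tyrobp had 163, 275 and 228, 152 and 199, and 252, 373 and 236 with saline, and 166, 197 and 146, 179, 131 and 149, and 179 and 212 with DEX (-0.36, -0.68 to -0.04, adjusted p = 0.296). In both genes the arms overlapped. Cd68, a lysosomal membrane protein, had 166, 165 and 77.5, 172 and 150, and 218, 169 and 143 with saline, and 189, 69.2 and 142, 133, 129 and 119, and 99.0 and 68.8 with DEX (-0.49, -0.97 to -0.01, adjusted p = 0.348). Its arms did not overlap in PS or AS mice and did in controls. Fcer1g (-0.35), Laptm5 (-0.25), Lgmn (-0.16) and Ctss (-0.13) were below 0 and Fcgr3 (0.06) above it, each with an interval that spanned 0. Fcgr3 has near-identical paralogs, so its reads are uncertain.

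Aif1 (Iba1, chr17:35170991-35176068, minus strand), the actin-binding protein used to stain microglia, was the 1 called of 3 pan-myeloid genes, beside 1.53% of all genes called lower. It had 78.3, 78.4 and 120 in control saline, 55.5 and 89.7 in PS saline and 110, 108 and 77.7 in AS saline, and with DEX 39.5, 41.5 and 56.9, 70.1, 29.3 and 51.8, and 56.6 and 30.5. PS_sal_62 (55.5) lay among the DEX values, and the other 7 saline libraries lay above all 8. The change was -0.92 (SE 0.22, adjusted p = 0.0404), and the call was lost without PS_sal_68 (adjusted p = 0.177) or AS_dex_42 (0.190). Ly86, a partner of a Toll-like receptor relative, had 179, 212 and 165, 188 and 149, and 268, 209 and 204 with saline and 110, 164 and 152, 180, 106 and 165, and 184 and 113 with DEX (-0.41, -0.75 to -0.06, adjusted p = 0.267). Cd53, a tetraspanin, had 130, 77.4 and 187, 133 and 120, and 168, 254 and 144 with saline and 98.8, 140 and 90.8, 132, 120 and 127, and 103 and 113 with DEX (-0.32, -0.72 to 0.08, adjusted p = 0.463). Over all libraries the saline and DEX ranges of both genes overlapped. The antigen presentation chaperone Cd74 had 74.3, 173 and 86.7, 146 and 57.3, and 103, 113 and 111 with saline and 61.6, 84.0 and 82.3, 88.3, 46.7 and 66.6, and 53.5 and 45.2 with DEX (-0.69, -1.19 to -0.19, adjusted p = 0.170). Its arms overlapped through PS_sal_68 (57.3), con_sal_102 (74.3) and con_sal_114 (86.7).

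**Figure D2:**
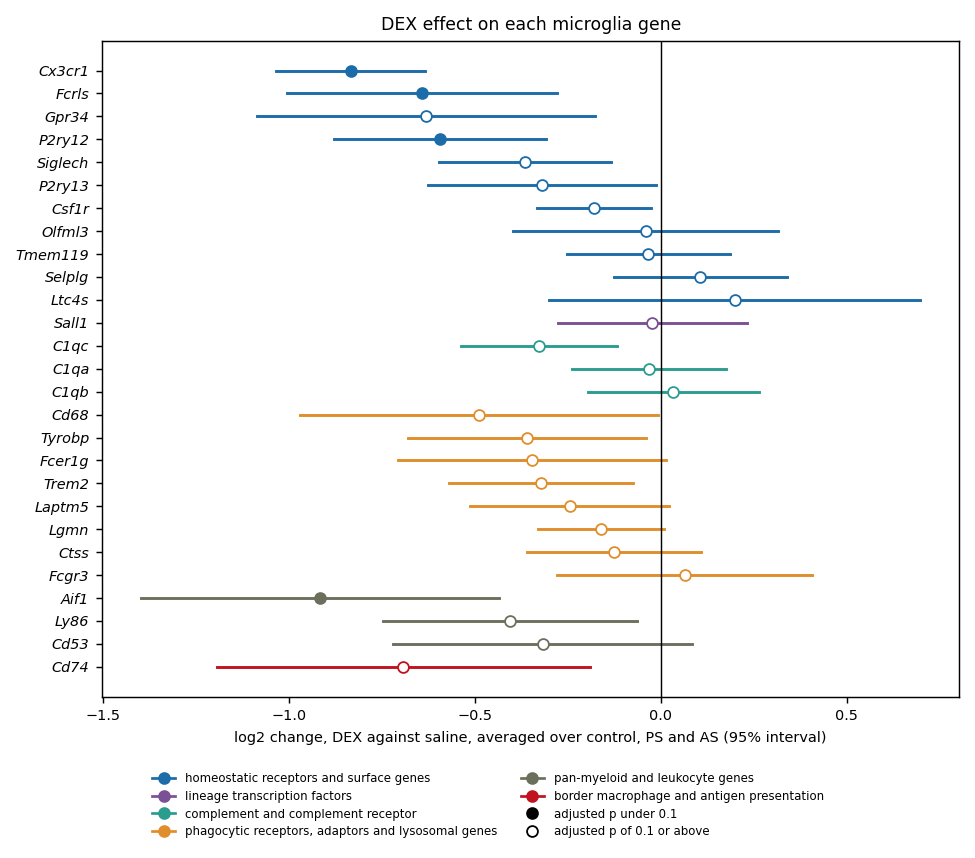
Log2 change with DEX against saline, averaged over control, PS and AS, for each of the 27 genes (points) with its 95% interval (lines), colored by role, with filled points at an adjusted p under 0.1. The 4 filled points are Cx3cr1, Fcrls, P2ry12 and Aif1, and the intervals of Tmem119, Sall1, C1qa and C1qb span 0.

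Whether members differed from one another in their DEX change was tested for 8 genes: Cx3cr1, P2ry12, Csf1r, Tmem119, C1qa, C1qb, C1qc and Trem2 (28 pairs, exact permutation of libraries within phenotypes, 2-sided, 2000 arrangements, smallest possible p 0.0005, Benjamini-Hochberg over the 28). Fcrls and Aif1 were not in this test. The test was added after the values were seen. Cx3cr1 had a lower DEX change than C1qb by 0.87 on the log2 scale, C1qa by 0.80, Tmem119 by 0.80, Csf1r by 0.66 and C1qc by 0.51 (adjusted exact p = 0.00467 each), and than Trem2 by 0.51 (adjusted exact p = 0.00875). Against P2ry12 the difference was -0.24 (SE 0.11, adjusted exact p = 0.11). P2ry12 also differed from C1qb (adjusted exact p = 0.00467), C1qa (0.0126), Tmem119 (0.014) and Csf1r (0.00875), and from C1qc (0.113) and Trem2 (0.158) it missed the threshold. Within C1q, C1qc had a lower change than C1qa (by 0.30, adjusted exact p = 0.0292) and C1qb (by 0.36, adjusted exact p = 0.0109). C1qc was also lower in change than the homeostatic gene Tmem119 (by 0.29, adjusted exact p = 0.054). Trem2 had a lower change than C1qb (by 0.36, adjusted exact p = 0.054) and C1qa (by 0.29, 0.0775), and Csf1r than C1qb (by 0.21, 0.0823). Both Trem2 gaps are averages over phenotypes and were widest among PS mice. The gap to C1qa reached 0.70 there, with 0.17 for AS mice and none for control mice (-0.003). For C1qb the PS gap of 0.64 stood beside 0.22 for AS and 0.20 for control mice. Whether these gaps differed by phenotype was not tested. In all, 16 of the 28 pairs had an adjusted exact p under 0.1, 6 of them with Cx3cr1. The pairs share genes, so they are not independent of one another. Between Tmem119 and C1qa the difference was -0.002 (SE 0.10, adjusted exact p = 0.983).

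Within each phenotype, Cx3cr1 was the only member called lower after DEX by limma, with 0 higher. In controls its change was -0.77 (SE 0.15, adjusted p = 0.0267), where 0.262% of all genes were called lower and 1% higher. PS mice had -0.93 (SE 0.17, adjusted p = 0.0232), with 0.124% of all genes lower and 0.579% higher, and AS mice had -0.80 (SE 0.17, adjusted p = 0.0569), with 0.152% lower and 0.538% higher. The 3 changes did not differ past the threshold: the interaction was -0.16 for PS against control (95% interval -0.64 to 0.32), -0.03 for AS against control (-0.51 to 0.45) and 0.13 for AS against PS (-0.38 to 0.64). The call in AS was lost when AS_dex_38, AS_dex_42, AS_sal_14, AS_sal_40 or AS_sal_8 was left out (adjusted p 0.111 to 0.953), that in PS without PS_dex_34, PS_sal_62 or PS_sal_68 (0.129 to 0.330) and that in controls without con_dex_101 or con_dex_122 (0.151 and 0.178).

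The other members did not pass the limma test within phenotypes. DESeq2 on the recovered reads called P2ry12 lower in AS, where it called 0.64% of all genes lower. P2ry12 had -0.45 in control mice, -0.47 in PS mice and -0.86 in AS mice (adjusted p = 0.415, 1 and 0.201), and Aif1 had -0.98, -0.56 and -1.21 (0.310, 1 and 0.346). The Aif1 value in PS ran from -0.22 (without PS_sal_68 or PS_dex_6) to -0.90 (without PS_sal_62), and that in AS was -0.77 without AS_dex_42. The median over the 27 was -0.19 for controls, -0.18 for PS and -0.39 for AS mice. Members whose DEX libraries all lay below the saline libraries numbered 5 in controls (7.43% of all genes), 9 in PS (10.1%) and 16 in AS (14.8%), in groups of 2 or 3. No member passed for an interaction between DEX and phenotype (limma, edgeR and DESeq2 called 0 each, with 0 members at an unadjusted p under 0.05 in all 3 interactions). Over all 14504 genes limma called 0, and 2.1%, 4.02% and 2.9% had an unadjusted p under 0.05 in the interactions of PS against control, AS against control and AS against PS.

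**Figure D3:**
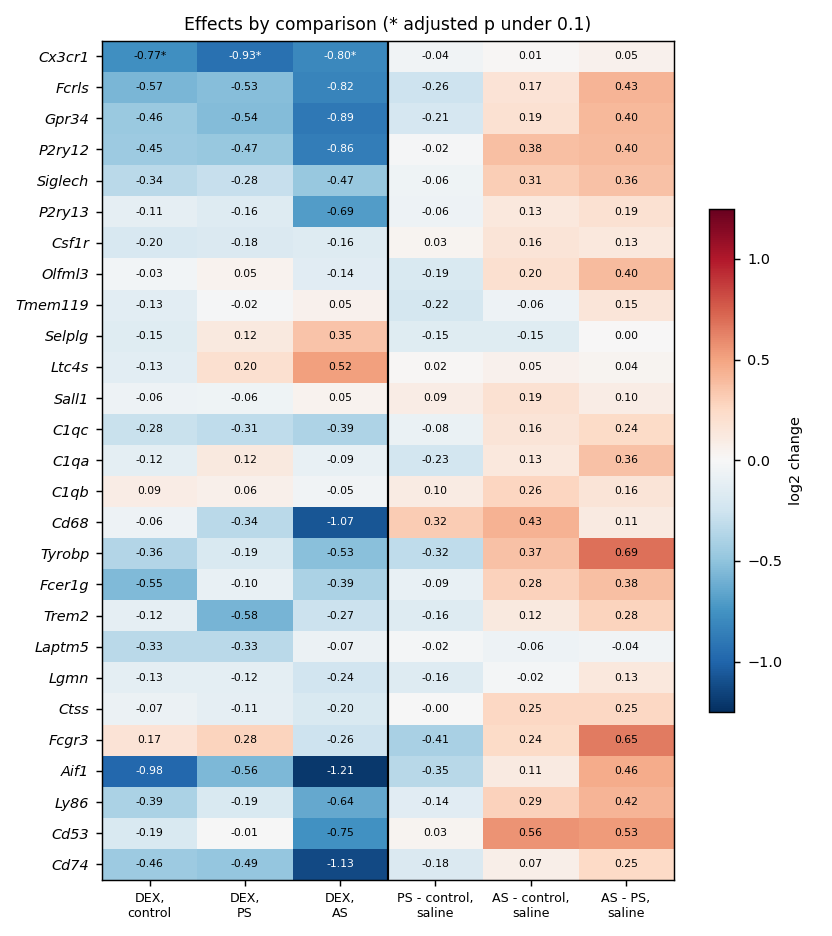
Log2 change of each of the 27 genes (rows) with DEX in control, PS and AS mice and between phenotypes under saline (columns), colored from lower (blue) to higher (red), with an asterisk at an adjusted p under 0.1. Asterisks stand only in the Cx3cr1 row, in the 3 DEX columns, where its values are -0.77, -0.93 and -0.80.

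For stress alone, under saline, 0 of 27 members were called in PS against control, AS against control or AS against PS by limma, edgeR or DESeq2, and limma called 0 of all genes in each. The median was -0.09 for PS against control (21 of 27 below 0, 49% of all genes; 0 members at an unadjusted p under 0.05, 7.67% of all genes), 0.17 for AS against control (23 of 27 above 0, with 46.1% of all genes below 0; 0 at an unadjusted p under 0.05, 2.39%) and 0.25 for AS against PS (26 of 27 above 0, with 49.6% of all genes below 0; 2 at an unadjusted p under 0.05, 3.41%). The 2 were Tyrobp (0.69, 95% interval 0.11 to 1.26, adjusted p = 0.728) and Fcgr3 (0.65, 0.03 to 1.26, adjusted p = 0.728). Fcgr3 had 386 in AS_sal_40 against 193 and 209 in the other AS saline libraries, and without AS_sal_40 the values were 0.33 for Fcgr3 and 0.49 for Tyrobp. These 3 comparisons share groups, so their signs are not independent of one another. Cx3cr1 stood at -0.04 (-0.40 to 0.32), 0.01 (-0.31 to 0.34) and 0.05 (-0.31 to 0.41) in the 3 in that order.

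AS_sal_40 held the highest value of 16 of the 27 genes, and AS_sal_14 of 6. Without AS_sal_40 the median of AS against PS was 0.13 and that of AS against control 0.05. Red blood cell markers were also highest in AS_sal_40 among the saline libraries, and their part in these values was not tested. Among DEX libraries, no member was called between phenotypes by limma, edgeR or DESeq2 (0 of all genes for PS against control and AS against PS, 0.00689% for AS against control). Trem2 was at -0.63 for PS against control (95% interval -1.02 to -0.23, unadjusted p 0.00444, adjusted p = 1), with 155, 123 and 185 against 258, 247 and 204, and at 0.59 for AS against PS (0.15 to 1.03, adjusted p = 1). It was the only member at an unadjusted p under 0.05 in these 2 comparisons (1.23% and 1.7% of all genes), and AS against control had 0 (3.5%).

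Markers of other cells moved with DEX as well. Of 10 oligodendrocyte and myelin markers, all in the table, 4 were called lower, namely Opalin (-1.71, SE 0.16, adjusted p = 2.2e-05), Ermn (-0.62, adjusted p = 0.0167), Mog (-0.43, adjusted p = 0.082) and Cnp (-0.37, adjusted p = 0.0141), with a median of -0.29. Their summed level was 137505 to 225802 normalized counts in saline and 134935 to 189893 in DEX libraries. The part of oligodendrocyte content in the microglia results was not tested. Of 8 astrocyte markers 0 were called (median 0.11), and of 7 serotonin neuron markers 0 (median -0.06). Of 7 endothelial markers, Slc2a1 was higher (0.47, adjusted p = 0.000203) and the other 6 were not called (median 0.05), and the summed level of the 7 was 10063 to 13948 with saline and 13272 to 14940 with DEX. Among 8 ependymal cilia and 3 choroid plexus markers limma called 0 (at an unadjusted p under 0.05, 0 and 1), with summed levels of 3141 to 9913 and 164 to 440 with saline and of 1549 to 14290 and 176 to 1025 with DEX. The part of these cells in the microglia results was not tested. Of border macrophage markers 10 and of blood leukocyte markers 14 were looked for and 0 of each were in the table, so they were not analysed here.

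**Figure D4:**
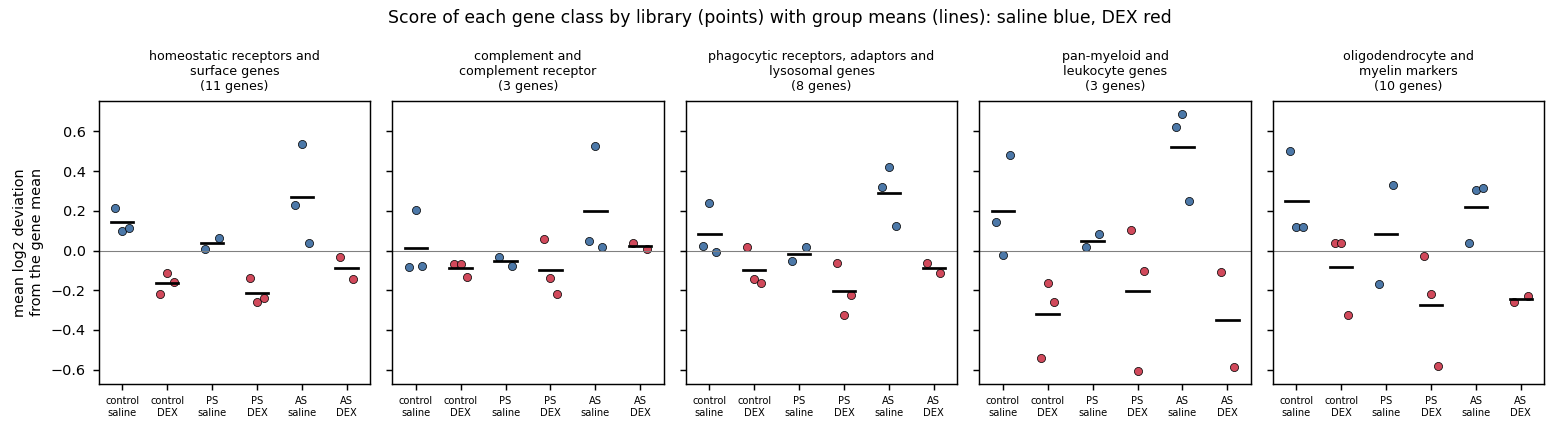
Mean log2 deviation from each gene's mean over 4 classes of microglia genes and over oligodendrocyte and myelin markers, by library (points; saline blue, DEX red) with group means (lines). AS_sal_40 is the highest point of the homeostatic, complement, phagocytic and pan-myeloid panels, and the myelin score runs from -0.17 to 0.50 with saline and from -0.58 to 0.04 with DEX.

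Other genes of microglial biology gave a mixed picture. Of 18 further microglia genes in the table, Maf, a transcription factor also made by other brain cells, was higher after DEX (867 ± 162 to 1301 ± 158 normalized counts, SD, n = 8 each, log2 change 0.59, adjusted p = 0.00651), and Unc93b1, a chaperone of endosomal Toll-like receptors, was lower (326 ± 32.1 to 207 ± 35.8, -0.64, adjusted p = 0.00779). The other 16 were not called, and the median was -0.05. Of 13 activation genes, lysozyme (Lyz2) alone was called, lower (142 ± 24.8 to 89.0 ± 23.6, -0.73, adjusted p = 0.0199). Of 9 genes listed as signals that act on microglia, Nrros, which presents transforming growth factor beta at the cell surface, was higher (171 ± 24.3 to 274 ± 45.7, 0.69, adjusted p = 0.00248). The ligand Tgfb3 was higher as well (292 ± 39.3 to 381 ± 53.6, 0.39, adjusted p = 0.0626). Which cells made the Nrros and Tgfb3 RNA, microglia or others, was not tested. The fractalkine ligand Cx3cl1 had -0.11 (SE 0.11, adjusted p = 0.656). None of 8 other complement genes was called by limma, and 0 had an unadjusted p under 0.05.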

How the data were processed

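Poly(A) RNA of punched dorsal raphe tissue was sequenced as paired ends. Per the labels, the authors used fastp 0.20.1, HISAT2 2.2.1 and featureCounts (Subread 2.0) on mm10 (GRCm38) and deposited a signal of gene counts divided by DESeq2 (1.36.0) size factors, called normalized counts here. Columns with the authors' own fold changes and p-values were not used. Whether counting used strand is not given in the sources used here. From the deposited signal, whole reads were recovered for 100% of values (within 0.01).

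Log2(normalized count + 1) was fitted with limma 3.58.1 on 6 group means over 16 libraries (residual degrees of freedom 10, prior 3.88, trended eBayes), tested in 13 contrasts, with Benjamini-Hochberg adjustment over 14504 genes and calls under 0.1. Changes are on that scale, which understates those of low genes. Intervals are 95% limma intervals. edgeR 4.0.16 and DESeq2 1.42.0 on recovered reads were alternatives, as were other pseudocounts, filters, normalizations, library weights and leaving out each library. The fit was tested on simulated data. Values per library are printed for the 3 members of each role class with the smallest p after DEX, those called in any other contrast and 8 genes always named. Coordinates come from GENCODE vM21 and promoters from RefSeq.

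The members, gene lists and tests were chosen with earlier results of these data known. The differences between genes and the motif letters were added after values had been seen.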

Additional observations from a re-analysis of the deposited data

How the results depend on the processing

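No paired analysis was possible because the replicate numbers in the labels name animals and no 2 groups share one. Averaged over phenotypes, the count of members called lower was 4 with limma, edgeR, a pseudocount of 0.1, TMM or quantile normalization, 5 with a pseudocount of 10 or a mean of at least 100 normalized counts (24 members tested), 6 with robust eBayes, 8 with DESeq2 (also Gpr34, Siglech, C1qc and Cd74) and 11 with library weights, whose estimation did not converge. Of all genes, 1.56%, 2.43% and 3.84% were called lower under the last 3. Library weights gave 2 in PS (1.24% of all genes lower) and 11 in AS (4.39%), and DESeq2 2 in AS (Cx3cr1 and P2ry12; 0.64%). Fitting only the groups compared gave 0 in controls (0.0827% of all genes lower) and 0 in AS (0%), where fewer libraries estimate the spread. Leaving out 1 library gave 1 to 5 in the average, 0 to 1 in controls, 0 to 1 in PS and 0 to 1 in AS. Some of these fits left 1 library in a group. Among those that kept at least 2 in each group, 0.958% to 1.83% of all genes were called lower in the average. The shares within phenotypes were 0.0689% to 0.448% in controls, 0.0276% to 0.124% in PS and 0.0414% to 0.2% in AS. No called member changed sign, and Cx3cr1 was called in the average under all 25 alternatives, with adjusted p up to 0.000893. P2ry12 was called in 24 of 25, Aif1 in 22 of 24 and Fcrls in 19 of 25. Stress and interaction counts were 0 under each alternative.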
